A study of Mus musculus with 16 samples.

Results

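RGS proteins (regulators of G-protein signalling) were followed through 8 genes, Rgs1, Rgs2, Rgs3, Rgs10, Rgs14, Rgs16, Rgs18 and Rgs19, of 16593 genes with a symbol on the array. All 18 probes of these genes were taken, and 10 probes covering 6 genes were bright enough to be tested. The 8 genes were chosen by a reader of earlier results from the same 16 arrays, so their own values are given as a description, and a p-value beside them shows where a probe falls among all tested probes and is not independent evidence. Each array measured total RNA from mouse bone marrow progenitors with 1-colour Illumina bead arrays.

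The cells came from 4 Booreana mice 8 weeks old and wild-type mice of the same age, were enriched for c-Kit (the stem cell factor receptor) and grown with IL-3, IL-6 and stem cell factor, and cells positive for green fluorescent protein and c-Kit were sorted 48 hours after the retroviruses were added. There were 4 groups with 4 arrays each: wild-type C57Bl/6 cells with the control vector MSCV-I-GFP, wild-type cells with MSCV-AML1-ETO9a-I-GFP, Booreana cells with the control vector, and Booreana cells with the AML1-ETO9a vector. Booreana is a mouse strain with a mutant Myb gene, which encodes the transcription factor c-Myb, and the series title concerns the interaction of c-Myb with the coactivator p300. AML1-ETO9a is a short form of the fusion protein of AML1 (RUNX1) and ETO made in acute myeloid leukemia, here expressed from a retrovirus. The sorted cells of all 4 groups, controls included, carry a retrovirus with the gene for green fluorescent protein. The labels give the strain background only for the wild type, and no probe here reads the Booreana mutation or is known to read the viral transcript. They do not say that equal replicate numbers are 1 animal or that replicates are separate cultures, and the p-values therefore reflect array-to-array spread, which may be technical.

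RGS proteins shut down signals from G protein-coupled receptors: a ligand-bound receptor loads the G protein alpha subunit with GTP, and the RGS domain speeds up the hydrolysis of that GTP, which returns the G protein to rest. In blood cells these proteins limit responses to chemokines, thrombin and other ligands of such receptors. Rgs1 and Rgs16 are known as inducible brakes on chemokine receptors in lymphocytes, Rgs18 is a regulator of platelets and their precursors, and Rgs14 and Rgs19 act on the Gi class of alpha subunits.

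The promoter windows of the members whose signal moved with AML1-ETO9a are shown because the vector encodes a fusion that keeps the DNA-binding part of a RUNX factor and the mouse strain carries a mutant MYB factor. The sequences are RefSeq's on GRCm38.p6, 250 bases before to 50 bases after a start, read 5′ to 3′, and 5 of the 8 members (Rgs2, Rgs3, Rgs10, Rgs16 and Rgs19) matched the table, with 8 windows, and Rgs1, Rgs14 and Rgs18 did not. Capitals mark matches to the MYB motif letters TAACNG or CAACNG on either strand. Rgs16 lies at chr1:153740103-153740402 on the plus strand, and the 2 starts of Rgs3 at chr4:62559597-62559896 and chr4:62619422-62619721, also on the plus strand.
Rgs16: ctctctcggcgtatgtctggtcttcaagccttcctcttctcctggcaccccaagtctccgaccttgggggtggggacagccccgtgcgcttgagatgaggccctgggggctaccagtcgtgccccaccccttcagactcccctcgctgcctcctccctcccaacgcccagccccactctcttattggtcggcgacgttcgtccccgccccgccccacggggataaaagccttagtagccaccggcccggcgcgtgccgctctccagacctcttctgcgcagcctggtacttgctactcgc
Rgs3 first start: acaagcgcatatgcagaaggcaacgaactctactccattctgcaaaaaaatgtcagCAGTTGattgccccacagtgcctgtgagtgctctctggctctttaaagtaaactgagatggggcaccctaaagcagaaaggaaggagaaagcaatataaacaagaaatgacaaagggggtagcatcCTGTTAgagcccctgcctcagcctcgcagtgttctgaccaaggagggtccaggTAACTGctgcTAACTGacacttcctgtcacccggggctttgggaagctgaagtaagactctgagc
Rgs3 second start: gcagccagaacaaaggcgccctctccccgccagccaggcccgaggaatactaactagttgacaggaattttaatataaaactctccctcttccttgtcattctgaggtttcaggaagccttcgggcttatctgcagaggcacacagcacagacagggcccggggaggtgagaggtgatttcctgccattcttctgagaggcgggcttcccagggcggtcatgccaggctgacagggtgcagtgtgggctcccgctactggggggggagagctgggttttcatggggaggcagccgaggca
The Rgs16 window and the second Rgs3 window held no match, and the first Rgs3 window held 4, which began 194, 68, 15 and 5 bases before the start. MYB letters of this kind occurred in 49.7% of all 32851 windows, so a match is common. RUNX letters (TGTGGT, in 16.8% of windows), NF-kB letters (GGACTTTCC, GGAATTTCC or GGGATTTCC, in 0.974%) and C/EBP letters (TTGCGCAA, in 0.183%) had no match in any of the 8 member windows. CRE letters (TGACGT, in 7.51%) matched only in Rgs2, where the match overlapped a MYB match. Rgs10 also held 1 MYB match.

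Values below are normalized log2 intensities, which read the array's brightness after background correction, and a step of 1 is a doubling. A probe counts as detected on an array where its detection p is under 0.05, and as called where its adjusted p is under 0.05. Booreana control replicate 2 stood apart from the other arrays, with 10158 detected probes against 11122 to 12002 and it correlated less with the others (mean r 0.845, against 0.931 to 0.955). Results that rest on it are given without it as well, where such a fit was run. Median intensities ran from 189 to 250. The transcript of Kit was not measured by a named probe here. Of the early progenitor list, 5 of 7 genes on the array were detected in wild-type control cells, with Flt3 and Slamf1 not detected. Of 6 B cell markers on the array, Pax5 and Vpreb3 were not detected in any group, while Cd79b and Ms4a1 were detected in every group. Cd79a was detected only in Booreana AML1-ETO9a cells and Vpreb1 only in wild-type AML1-ETO9a cells. Of 7 T and NK cell markers, Cd3e, Klrb1c, Ncr1 and Cd8a were not detected in any group, and Cd3d and Cd3g only in Booreana cells. Nkg7 was detected in every group and was called lower with AML1-ETO9a, at -2.64 in wild-type and -2.59 in Booreana cells. Fewer cells that express a gene and less RNA per cell cannot be told apart in such bulk samples.

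Rgs1 carried the largest differences of the 8 genes, and they lay between the genotypes. All 3 Rgs1 probes had the same order of group means: wild-type control lowest, then wild-type AML1-ETO9a, then Booreana control, and Booreana AML1-ETO9a highest. Probe ILMN_2625377, the brightest, read 7.04, 6.10, 6.79 and 7.99 on the wild-type control arrays and 8.59, 7.74, 8.03 and 8.60 on the wild-type AML1-ETO9a arrays. In Booreana cells it read 9.96, 10.46, 9.53 and 10.81 with the control vector and 11.49, 11.20, 10.62 and 11.60 with AML1-ETO9a. Every Booreana array lay above every wild-type array, while the vectors overlapped within each genotype. The group means were 6.98 ± 0.78, 8.24 ± 0.43, 10.19 ± 0.56 and 11.23 ± 0.44 (SD, n = 4 each).

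The Rgs1 difference between genotypes was Booreana minus wild-type 3.21 ± 0.37 (SE) with the control vector for ILMN_2625377, a 9.23-fold higher signal (limma adjusted p = 5.65e-05). With AML1-ETO9a it was 2.99 ± 0.37, or 7.92-fold (limma adjusted p = 0.000179). Probe ILMN_2897891 read 5.22 to 6.47 in wild-type control cells and 7.67 to 8.96 in Booreana control cells, a difference of 2.64 ± 0.33 (limma adjusted p = 8.73e-05), with no overlap. With AML1-ETO9a it read 6.47 to 7.40 in wild-type and 8.94 to 9.68 in Booreana cells, again without overlap, a difference of 2.50 ± 0.33 (limma adjusted p = 0.000249). These Rgs1 calls held in all 25 alternatives that gave a value, with smaller sizes on the authors' processed values (1.67 and 0.78 for the control vector).

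The remaining Rgs1 probe, ILMN_2596596, depended on the array that stood apart. It read 4.75, 5.37, 5.21 and 5.98 in wild-type control cells and 8.13, 4.75, 7.69 and 7.62 in Booreana control cells. Booreana control replicate 2 thus lay with the wild-type arrays on this probe, while it read 10.46 and 8.63 on the other Rgs1 probes, inside its group. The genotype difference was 1.72 ± 0.60 (limma adjusted p = 0.123, not called) and became 2.50 (limma adjusted p = 0.00109) without that array. With AML1-ETO9a, where the wild-type arrays read 4.89 to 6.77 and the Booreana arrays 8.65 to 9.60, it was 3.17 ± 0.60 (limma adjusted p = 0.00603).

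**Figure D1:**
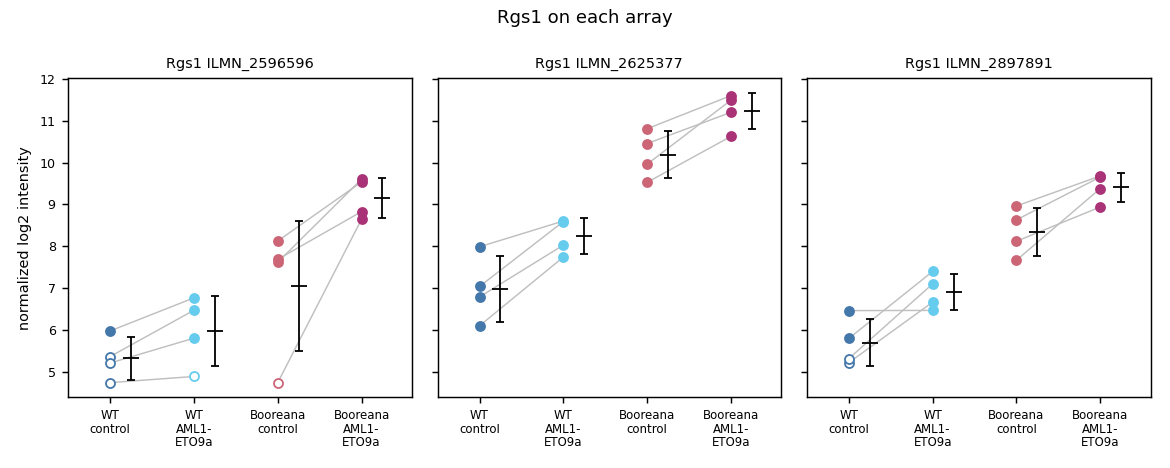
Normalized log2 intensity of the 3 Rgs1 probes (vertical axis) on each of the 16 arrays in 4 groups; filled points are detected, open points are not, grey lines join arrays of equal replicate number within a genotype, and black marks give the group mean ± SD (n = 4). The Booreana groups lie above the wild-type groups on every probe except for 1 Booreana control array, at 4.75 on ILMN_2596596.

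What AML1-ETO9a does to Rgs1 was read within each genotype. Taken by equal replicate number, AML1-ETO9a arrays read higher in 4 of 4 pairs in both genotypes on ILMN_2625377: by 1.55, 1.64, 1.24 and 0.61 in wild-type cells and by 1.53, 0.74, 1.10 and 0.79 in Booreana cells. On ILMN_2897891 the pairs differed by 1.60, 1.44, 1.78 and 0.00 in wild-type cells and by 1.71, 1.02, 0.82 and 0.72 in Booreana cells. The last wild-type pair thus read the same on that probe to 2 decimals. On ILMN_2596596 the mean pair difference was 0.66 ± 0.40 in wild-type and 2.11 ± 1.25 in Booreana cells (SD, n = 4 pairs), the latter with 3.90 for the pair of the array that stood apart.

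Without the pairing, Rgs1 passed the threshold in wild-type cells on 1 of its 3 probes, ILMN_2897891, at 1.21 ± 0.33 (limma adjusted p = 0.0477). ILMN_2625377 was at 1.26 ± 0.37 and not called (limma adjusted p = 0.0764). In Booreana cells no Rgs1 probe was called: the values were 2.11 ± 0.60, 1.04 ± 0.37 and 1.07 ± 0.33 (limma adjusted p = 0.111, 0.230 and 0.136 for ILMN_2596596, ILMN_2625377 and ILMN_2897891). With equal numbers as a block within each genotype, ILMN_2625377 was called in both genotypes, at limma adjusted p = 0.00583 in wild-type and 0.0283 in Booreana cells. In that fit ILMN_2897891 was called in wild-type cells (0.0343) and not in Booreana cells (0.0815), and ILMN_2596596 the other way round (0.433 and 0.0208), all limma adjusted p-values. The Booreana call of ILMN_2596596 includes the pair at 3.90, and the block fit was not run without that array. This probe was called in Booreana cells in 6 of 26 alternatives. In unpaired fits without 1 array it was called in 0 of 16, with differences as low as 1.32. The unpaired call of ILMN_2897891 was kept in 5 of 16 fits that each leave out 1 array, with the highest limma adjusted p, 0.161, without wild-type control replicate 2. It was lost as well with no background correction (0.41), an offset of 50 (0.83), no normalization between arrays (1.25), the authors' processed values (0.24), no detection filter, only the groups compared or a block shared by both genotypes. The difference of the 2 responses was not called for any Rgs1 probe: -0.22 ± 0.53 for ILMN_2625377, with a 95% interval from -1.35 to 0.91, -0.14 ± 0.46 (-1.12 to 0.84) for ILMN_2897891, and 1.45 ± 0.85 (-0.36 to 3.26) for ILMN_2596596.

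Rgs16 was the member with the largest response to AML1-ETO9a in wild-type cells. Its probe ILMN_2600744 read 5.08, 6.37, 5.65 and 5.79 on the wild-type control arrays, where it was detected on 2 of 4, and 7.54, 7.62, 7.50 and 8.10 with AML1-ETO9a, where it was detected on all 4. The groups did not overlap. The difference was 1.97 ± 0.32, or 3.91-fold (limma adjusted p = 0.00153), and it was called in all 26 alternatives. Its size depended on the background step: it was 0.77 with no background correction and 0.48 on the authors' processed values.

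In Booreana cells Rgs16 read 5.03, 5.97, 6.00 and 6.37 with the control vector and 6.87, 6.72, 5.81 and 6.44 with AML1-ETO9a, and these groups overlapped. The difference was 0.62 ± 0.32, with a 95% interval from -0.06 to 1.30 (limma adjusted p = 0.462, and 0.323 with the block within each genotype). Rgs16 was higher with AML1-ETO9a in 4 of 4 wild-type pairs and in 3 of 4 Booreana pairs. The difference of the 2 responses was -1.35 ± 0.45, with a 95% interval from -2.31 to -0.385 that is not adjusted for the number of probes. It was not called (limma adjusted p = 0.499, and 0.273 with the block within each genotype). A smaller response in Booreana cells was thus neither shown nor excluded. Set against each other with AML1-ETO9a, the Booreana arrays all lay below the wild-type arrays, by 1.23 ± 0.32 (limma adjusted p = 0.0429); that call was kept in 6 of 16 fits without 1 array, reached 0.141 without Booreana AML1-ETO9a replicate 3, and was lost with no normalization between arrays (0.0973) or no detection filter (0.0708). With the control vector the genotypes overlapped (0.12 ± 0.32).

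Rgs3, a family member with long and short forms, gave a result on 1 of its 3 tested probes that the others did not share. ILMN_1239208 read 6.56, 6.72, 7.18 and 7.29 in wild-type control cells and 5.26, 5.92, 6.47 and 5.91 with AML1-ETO9a. The groups did not overlap, and the difference was -1.05 ± 0.28 (limma adjusted p = 0.0480, and 0.0306 with the block within each genotype). That unpaired call was kept in 3 of 16 fits without 1 array, with the highest limma adjusted p, 0.150, without wild-type control replicate 4. It was lost as well with no background correction (-0.36), an offset of 50 (-0.74), no normalization between arrays (-0.96), the authors' processed values (-0.22), no detection filter or only the groups compared. In Booreana cells the probe read 7.29, 6.30, 7.38 and 7.44 with the control vector and 6.14, 6.47, 6.17 and 6.30 with AML1-ETO9a. The only overlap came from Booreana control replicate 2, at 6.30, and the difference was -0.83 ± 0.28 (limma adjusted p = 0.202) with that array and -1.10 (limma adjusted p = 0.0336) without it.

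Of the other tested Rgs3 probes, ILMN_2610678 ran from 5.41 to 7.25 and ILMN_2610679 from 5.68 to 7.44 over the 16 arrays, and neither was called in any comparison. Their wild-type responses were 0.18 ± 0.40 and 0.03 ± 0.28. Over the 16 arrays their correlations with ILMN_1239208 were -0.16 and -0.16, against 0.50 with each other, as a description only. The sources used here do not say which Rgs3 transcripts each probe reads. The remaining 5 Rgs3 probes were detected on at most 1 array each.

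Rgs10, an RGS protein of myeloid and lymphoid cells, read 10.52, 10.52, 10.22 and 10.07 in wild-type control cells and 10.82, 11.59, 10.88 and 11.24 in Booreana control cells. With AML1-ETO9a it read 9.78 to 10.17 in wild-type and 10.44 to 11.44 in Booreana cells. The genotypes did not overlap with either vector. The Booreana minus wild-type difference was 0.80 ± 0.23 with both vectors and missed the threshold (limma adjusted p = 0.0555 and 0.0838). It passed with the control vector under 4 processing settings: no background correction (limma adjusted p = 0.0374), an offset of 50 (0.0444), the authors' processed values (0.0422) and a filter for detection on all 4 arrays of a group (0.0471). It also passed without Booreana control replicate 1 (limma adjusted p = 0.0479) or Booreana AML1-ETO9a replicate 4 (0.0246), and with AML1-ETO9a without Booreana control replicate 2 (0.0455). Under all other alternatives run it missed the threshold, with either vector. With the control vector these include the fit without Booreana control replicate 2, the highest array of its group at 11.59. The vectors differed by -0.32 ± 0.23 in each genotype, not called.

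Rgs14, which also binds Ras-family proteins, read 7.33 to 7.83 in wild-type control and 6.49 to 7.37 in wild-type AML1-ETO9a cells, with values of 7.34 to 7.84 and 6.42 to 7.50 in Booreana cells. The responses were -0.56 ± 0.25 in both genotypes, with overlapping groups and no call (limma adjusted p = 0.349 and 0.387). Rgs19 read 7.15 to 8.59 over all arrays and was not called in any comparison. With AML1-ETO9a its Booreana arrays, 7.15 to 7.68, lay just below its wild-type arrays, 7.69 to 8.28, a difference of -0.60 ± 0.29 (limma adjusted p = 0.469).

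**Figure D2:**
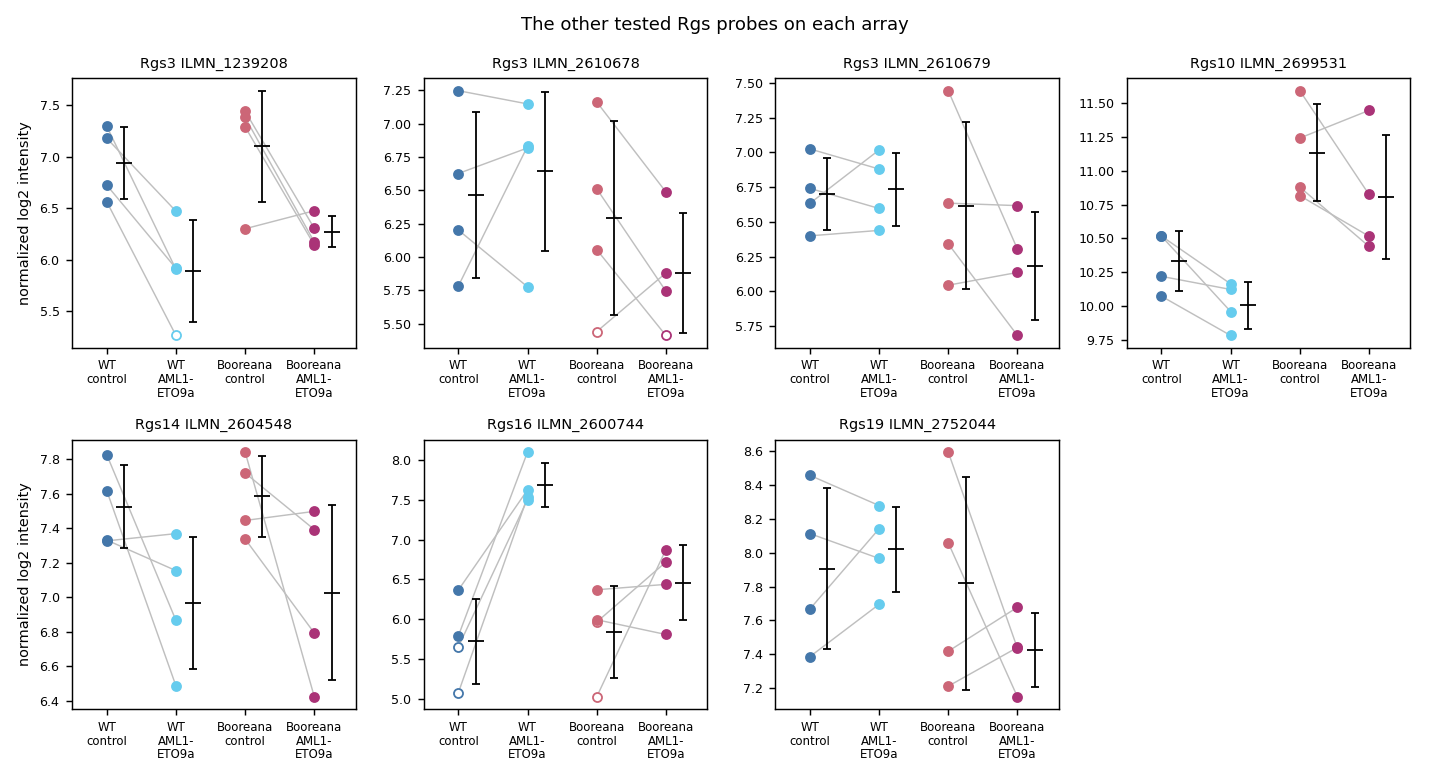
Normalized log2 intensity (vertical axes, each with its own range) of the other 7 tested probes on each array, drawn as for Rgs1 with group mean ± SD (n = 4). Wild-type AML1-ETO9a arrays lie from 7.50 to 8.10 on Rgs16, above all other groups, and Booreana arrays lie above wild-type arrays of the same vector on Rgs10.

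Rgs2, a regulator of the Gq class, and Rgs18 stayed at or near background. The Rgs2 probe was detected on 1 array and the 2 Rgs18 probes on 1 and 0 arrays. Together with the 5 dim Rgs3 probes they read between 4.57 and 6.00 over all arrays, the level of background. Small changes or falls in these genes could not have been seen on this array, and no group rose above background on enough arrays to be tested. Of the other 10 genes on the array named Rgs with a number (11 probes), 2 probes were bright enough to be tested, those of Rgs12 and Rgs17. Rgs12 was at 1.42 ± 0.49 in Booreana minus wild-type cells with the control vector (limma adjusted p = 0.115), and neither was called in any comparison.

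Counted over the 10 tested member probes, 3 were called for AML1-ETO9a in wild-type cells (2 higher, 1 lower), where 4.32% of all 12760 tested probes were called. In Booreana cells 0 were called by limma against 1.65% of all probes, and 5, among them every Rgs1 probe, had an unadjusted p under 0.05. With the block within each genotype 2, both of Rgs1, were called there, in a fit that called 3.56% of all probes. In wild-type cells that fit called 4 member probes and 7.52% of all probes, and for the difference of the responses 0 and 0.290%. For Booreana minus wild-type, 2 were called higher with the control vector (6.34% of all probes) and 4 with AML1-ETO9a, 3 higher and 1 lower (3.74%). For the difference of the 2 responses 0 were called by limma (0.0862% of all probes), with 1, that of Rgs16, at an unadjusted p under 0.05. As the genes were chosen with these comparisons known, nothing is read from the counts. The share of all probes or genes at an unadjusted p under 0.05 was not counted. Such counts, here and for the gene lists below, therefore have nothing to be set against. The median member difference was 0.15, -0.36, 0.14, 0.22 and -0.18 in the 5 comparisons, and that of all tested probes lay between -0.05 and 0.01.

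**Figure D3:**
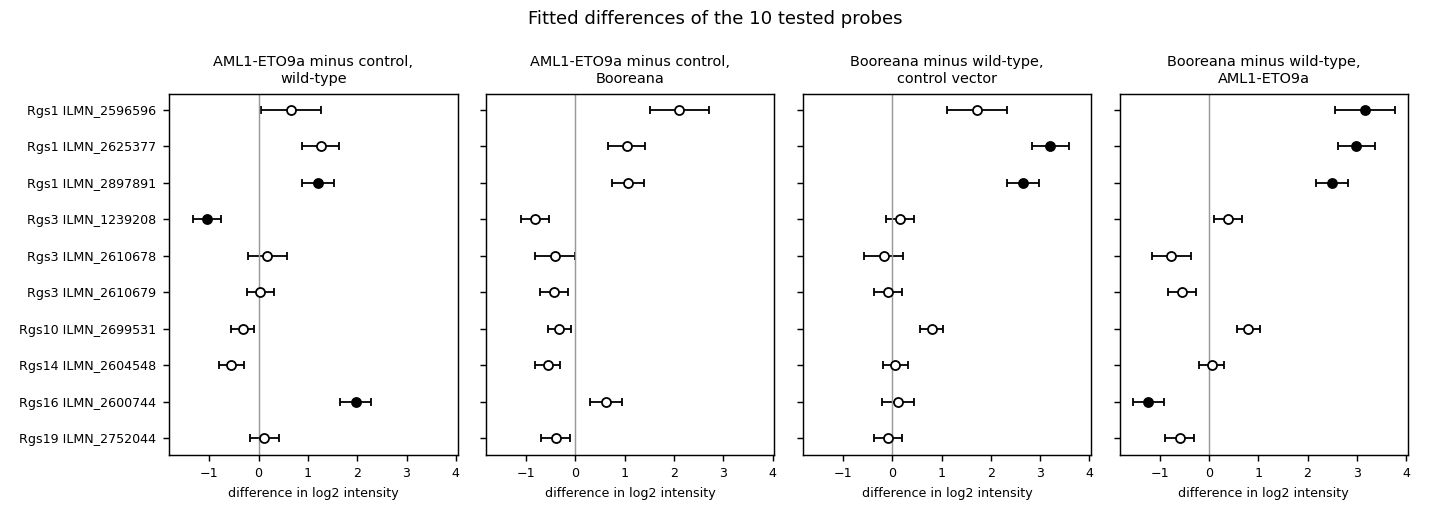
Fitted difference in log2 intensity (horizontal axis) ± SE of the 10 tested probes in 4 comparisons, with filled points for adjusted p under 0.05 in the fit without pairing. The 3 Rgs1 probes lie between 1.72 and 3.21 in the genotype comparisons, and Rgs16 lies at 1.97 for AML1-ETO9a in wild-type cells and at -1.23 for Booreana minus wild-type cells with AML1-ETO9a.

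Genes whose pattern over the 16 arrays was most like that of each member were taken from 8687 named candidates by Pearson correlation, as a description: the arrays share their groups, and most of the likeness can come from group differences. For Rgs1 (ILMN_2625377) the nearest was F2r, the thrombin receptor PAR1, itself a G protein-coupled receptor, with r = 0.985 (0.987 without Booreana control replicate 2). After each group's mean was taken off, r was 0.870 over the 16 arrays. F2r, like Socs3 below, was picked by its correlation over these same arrays, and same-numbered arrays deviated together within a genotype. Such values are therefore a description as well. F2r read 11.51 to 12.77 in wild-type control, 12.36 to 12.97 in wild-type AML1-ETO9a, 14.07 to 14.90 in Booreana control and 14.52 to 15.13 in Booreana AML1-ETO9a cells, so its groups stood in the same order as those of Rgs1. The serpin gene Serpinb6a (0.970) and the collagen gene Col18a1 (0.963) followed.

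For Rgs16 the nearest gene was Socs3, a feedback inhibitor of cytokine signalling, with r = 0.918, and 0.624 after the group means were taken off. Socs3 read 10.02 to 10.41 in wild-type control and 11.22 to 11.49 in wild-type AML1-ETO9a cells, without overlap, and 9.94 to 10.49 and 10.38 to 11.02 in the corresponding Booreana cells, with overlap. Akap7, which anchors protein kinase A (0.891), and the neutrophil chemokine Cxcl1 (0.887) came next. Cxcl1 was detected on none of the 8 control arrays, on 4 of 4 wild-type AML1-ETO9a arrays at 7.70 to 8.26, and on 3 of 4 Booreana AML1-ETO9a arrays at 5.99 to 7.15, with the other at 5.52. For Rgs10 the nearest was H2-Ab1, an MHC class II gene (0.927), followed by Dok2 and Rnase6. For Rgs3 (ILMN_2610679), Rgs14 and Rgs19 the nearest were Fbxo30 (0.864), Oxr1 (0.787) and the cytochrome c gene Cycs (0.842).

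**Figure D4:**
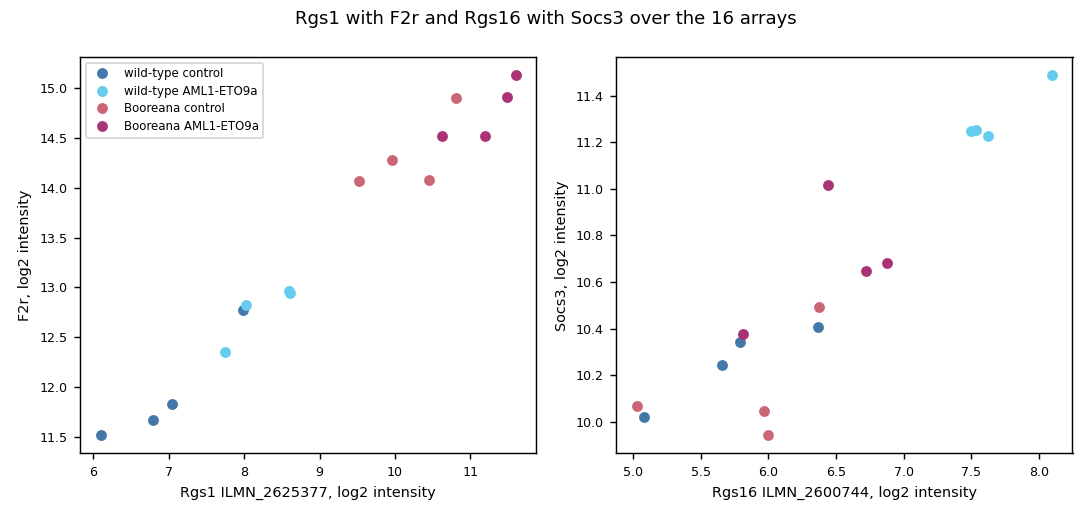
Log2 intensity of Rgs1 against F2r (left) and of Rgs16 against Socs3 (right), 1 point per array, coloured by group. The Rgs1 and F2r groups run from wild-type control to Booreana AML1-ETO9a, and on the right the wild-type AML1-ETO9a arrays lie apart at Socs3 values of 11.22 to 11.49.

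On chromosome 1, the 5 nearest genes with a tested probe on either side of Rgs1, looked at after its values were seen, were not called for genotype with either vector: their differences ran from -0.66 (Ivns1abp) to 0.60 (Ro60). Over all genes 7.38% were called for genotype with the control vector and 4.21% with AML1-ETO9a, so nothing is read from that count. Of the 10 such neighbours of Rgs16, 1 was called for AML1-ETO9a in wild-type cells: Rgl1, which encodes an exchange factor for Ral proteins, at 2.14 (limma adjusted p = 0.000617). The genes between it and Rgs16 were not called: Arpc5 at -0.01, Lamc1 at 1.31 and Dhx9 at -0.59. Of the 10 neighbours of Rgs3, 2 were called in that comparison, the plasma protein genes Orm1 at -2.14 and Ambp at -1.08 (limma adjusted p = 6.99e-06 and 0.00628). There 4.92% of all genes were called. For genotype with the control vector, Ambp at -2.86 and Orm1 at -2.44 were called lower, and Alad at 1.38 and Whrn at 1.21 higher. With AML1-ETO9a, Ambp was called at -1.84. Nothing is read from counts over so few neighbours.

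Among the receptors that RGS proteins act downstream of, 31 of 52 on the array were tested with 1 probe per gene. In Booreana minus wild-type cells 8 were called higher and 0 lower with the control vector, where 7.38% of all 8833 genes were called, and 7 higher and 0 lower with AML1-ETO9a (4.21% of all genes). F2r was higher by 2.39 ± 0.28 and 2.00 ± 0.28, the ADP receptor P2ry1 by 1.73 ± 0.21 and 1.31 ± 0.21, and the oxysterol receptor Gpr183 by 1.83 ± 0.23 and 1.26 ± 0.23. The UDP-glucose receptor P2ry14 was higher by 1.41 ± 0.26 and 1.07 ± 0.26, and the chemokine receptor Cxcr1 by 2.35 ± 0.42 with AML1-ETO9a. Cxcr1 was called with the control vector too, where it was not detected on any wild-type array, and its signal was at least 2.21-fold higher in Booreana cells (limma adjusted p = 0.0246). A second P2ry14 probe was called in both comparisons and the remaining, dim one in neither. The largest limma adjusted p of these calls was 0.0287. The median over the 31 was 0.20 with the control vector and 0.41 with AML1-ETO9a, against 0.04 and -0.04 over all genes. As the gene lists were chosen with earlier results of these data known, nothing is read from these counts and medians.

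In each vector comparison 10 of the 31 receptors had an unadjusted p under 0.05, a level whose share over all genes was not counted. Of the 31, 2 were called in wild-type cells and 1 in Booreana cells, shares of calls near those of all genes. In wild-type cells AML1-ETO9a raised Ptger2, a prostaglandin E2 receptor, by 1.24 ± 0.25 (limma adjusted p = 0.00799). It lowered Cxcr4, the receptor that holds progenitors in the marrow, by a difference of -1.57 ± 0.43 (limma adjusted p = 0.0497), where 4.92% of genes were called. In Booreana cells 1 of 31 was called, Gpr34, at -1.78 ± 0.34 (limma adjusted p = 0.0117, 2.00% of all genes called), and its second probe was at -1.42 ± 0.52, not called. No receptor was called for the difference of the 2 responses (limma, 0.0906% of genes called, 1 receptor at an unadjusted p under 0.05).

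Of 21 tested G protein subunits, 2 were called higher in Booreana cells with each vector, against 7.38% of all genes with the control vector, a similar share, and 4.21% with AML1-ETO9a. In the other comparisons 0 were called by limma, with 2 to 4 at an unadjusted p under 0.05. Gnb4, a beta subunit, was higher by 2.26 ± 0.27 with the control vector and 1.96 ± 0.27 with AML1-ETO9a (limma adjusted p = 7.83e-05 and 0.000471), and its second probe was called as well. Gngt2, a gamma subunit, was higher by 1.32 ± 0.32 with the control vector (limma adjusted p = 0.0179). Gnaz, an alpha subunit of the Gi class that Rgs19 is known to act on, was higher by 2.12 ± 0.54 with AML1-ETO9a (limma adjusted p = 0.0384). It was detected on only 1 of the 4 wild-type arrays there, so the size depends on the background level. Of 18 tested effectors, receptor kinases and arrestins, 1 was called with AML1-ETO9a in wild-type cells (4.92% of all genes) and 2 for genotype with AML1-ETO9a (4.21%). Rap1gap2, which switches off Rap1, was lower by a difference of -1.63 ± 0.33 with AML1-ETO9a in wild-type cells and higher by 1.77 ± 0.33 in Booreana AML1-ETO9a cells (limma adjusted p = 0.00737 and 0.0047). The adenylyl cyclase Adcy6 was higher by 1.48 ± 0.34 in the latter (limma adjusted p = 0.0206). Of 14 other tested RGS-like genes none was called by limma in any of the 5 comparisons, with between 1 and 6 at an unadjusted p under 0.05.

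Markers of several blood cell types differed between the same groups, where 7.38% (genotype with the control vector), 4.21% (genotype with AML1-ETO9a), 4.92% (AML1-ETO9a in wild-type cells) and 2.00% (in Booreana cells) of all genes were called. The summed intensity of 7 early progenitor markers ran from 1958 to 4134 on wild-type control and from 10250 to 20920 on Booreana control arrays, and from 2135 to 4751 and from 7583 to 10380 with AML1-ETO9a. Such sums are on a linear scale, so bright markers weigh most. Gata2 had log2 means of 11.11 in wild-type control and 13.47 in Booreana control cells, against 8.41 and 10.96 for Meis1 and 6.39 and 8.30 for Cd34. That of 9 neutrophil granule genes ran from 354000 to 367300 in wild-type control and from 46180 to 160900 in Booreana control cells, with 4 called lower and 0 higher. The 7 megakaryocyte markers summed to between 688 and 2191 and between 3711 and 7845 in these groups, with 2 of 7 called higher, Itga2b and Pf4. The 7 monocyte markers summed to between 2422 and 3339 in wild-type control and between 8308 and 11020 in wild-type AML1-ETO9a cells, with 3 of 5 tested called higher (Adgre1, Cd14 and Mrc1) and Ccr2 and Ms4a6c not detected. In Booreana cells that sum ran from 4977 to 5929 with the control vector and from 8483 to 13080 with AML1-ETO9a, with 1 of 5 called higher (Adgre1). For Booreana minus wild-type with AML1-ETO9a, 1 of these 5 was called, Cd14, lower at -1.31, and the highest difference was 0.52. For the difference of the 2 responses 0 of the 5 were called, with values from -1.30 to -0.21. Other markers called with AML1-ETO9a in wild-type cells included Ppbp at 4.34 and Pf4 at 2.27 (platelet chemokines) and Cd34 at 2.60 (early progenitors). Elane at -2.25 (a neutrophil protease) and Prg3 at -2.36 (eosinophils) were called lower there. The 10 tested mast cell and basophil markers were split in that comparison. Prss34 at -3.12 and Mcpt8 at -2.26 were called lower, and Cpa3 at 1.93 and Hdc at 1.21 higher. In Booreana cells they were split too, with 3 called higher, among them Tph1 at 4.45 and Tpsab1 at 3.23. There 2 were called lower, Prss34 at -3.19 and Mcpt8 at -2.41. Treml1 at 2.99, Slamf1 at 2.40 and Cd34 at 1.27 were also called higher there, and Mpo at -2.87, Elane at -2.02 and Alox15 at -1.64 lower. Tph1, Tpsab1 and Slamf1 were not detected on any Booreana control array, so their sizes depend on the background level. For Booreana minus wild-type, early progenitor markers were called higher in 3 of 6 tested genes with each vector. The 11 mast cell and basophil markers summed to between 13100 and 35190 in wild-type control and between 27510 and 60370 in Booreana control cells, with 3 of 10 tested called higher (Ms4a2, Fcer1a and Hdc) and Mcpt4 not detected in any group. With AML1-ETO9a 3 of these 10 were called higher for genotype and 0 lower, Fcer1a at 4.81, Tph1 at 3.57 and Ms4a2 at 2.21. The megakaryocyte marker Itga2b was called higher there at 2.42. Of 5 tested erythroid markers, 2 were called higher in Booreana cells with the control vector, the globin gene Hba-a1 at 5.05 and the transcription factor Klf1 at 1.68, and 1 with AML1-ETO9a, Hba-a1 at 5.27. Of 4 tested eosinophil markers 1 was called higher with each vector, Alox15 at 1.91 with the control vector and Prg2 at 1.49 with AML1-ETO9a. The eosinophil list went both ways: its lowest differences were -1.51 and -1.38, and its medians 0.15 and 0.16. The part of these cell types in the Rgs1 and Rgs16 differences was not tested.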

How the data were processed

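Gene expression was read on 16 Illumina arrays in 4 groups of 4, assigned from the labels. The deposited table of 25697 probes gave, per the file headers, raw signal intensity with a detection p-value. Its lowest intensity was 112, so background had not been subtracted. A second table held the authors' deposited values, which look like log2 values and share the median 8.34 on every array. The submitters' processing notes name lumi, without a version, and the sources used here do not give the exact scale, so this table was an alternative only.

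Background was corrected by limma's normexp method (offset 16), which took the negative controls' level from the detection p-values, and quantile normalization and log2 followed (limma 3.58.1 and statmod 1.5.0 in R 4.3.3). The test took 12760 probes of 8833 genes, those detected (p under 0.05) on 4 or more arrays. A limma model with 4 group means gave 5 comparisons, with Benjamini-Hochberg adjusted p-values over all tested probes. Values after ± are standard errors unless SD is written. The fit was tested on simulated data. Gene symbols came from the platform annotation, with 1 symbol for 23978 probes, several for none, and no symbol for 1719. For pathway genes the probe with the highest mean stood for the gene, and up to 4 called genes per list and comparison, by adjusted p, were named.

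Alternatives were no background correction, an offset of 50, no normalization between arrays, the authors' values, other detection filters, only the groups compared, array weights, a replicate block and leaving out each array. Equal replicate numbers paired the arrays within a genotype: the deviations from group means of same-numbered arrays correlated by 0.167 to 0.708 in 8 of 8 pairs. A block within each genotype was therefore added after the data were seen. The number of arrays limits the precision. The members, gene lists and tests were chosen with earlier results of these data known.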

Additional observations from a re-analysis of the deposited data

Results flagged for a closer look

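In 40 combinations of a tested probe and a group of 4 arrays, 2 held an array far from the other 3, where chance flags about 1 in 20. Both were Booreana control replicate 2, the array that stood apart over all probes. On Rgs1 probe ILMN_2596596 it read 4.75, while the other Booreana control arrays read 7.62 to 8.13, a gap of 0.85 of the group's range. On Rgs3 probe ILMN_1239208 it read 6.30, while the others read 7.29 to 7.44, a gap of 0.868 of the range.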

How the results depend on the processing

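The counts of called member probes changed with the processing mainly in the vector comparisons. For AML1-ETO9a in wild-type cells the count of 3 became 1 with no background correction, an offset of 50, no normalization between arrays, the authors' values, no detection filter or only the 2 groups compared, and ranged from 1 to 3 when 1 array was left out; Rgs16 was called in all of these. In Booreana cells the count of 0 became 2 with no background correction, 1 with an offset of 50, 1 with no normalization between arrays, 2 with the authors' values, 3 with array weights and 2 with the replicate block within each genotype, and ranged from 0 to 1 when 1 array was left out, with 1 without Booreana control replicate 2. The cause was not tested. For Booreana minus wild-type the counts of 2 and 4 stayed within 1.5 times under every alternative run, and for the difference of the 2 responses the count was 0 under each of them. No called change reversed. Between genotypes, equal replicate numbers did not pair the arrays: 3 of 8 correlations exceeded 0.1, in a range from -0.507 to 0.328. Over both kinds of pair, within and between genotypes, 10 of 16 arrays correlated best with their own number. The planned replicate block shared by both genotypes gave 3, 0, 2, 4 and 0 called probes in the 5 comparisons, although Rgs1 passed on ILMN_2625377 (limma adjusted p = 0.0171) instead of ILMN_2897891 (0.0555) in wild-type cells. Over all probes, the called count moved by over 1.5 times with array weights (1125, 535, 1285, 738 and 57, against 551, 210, 809, 477 and 11), with the block within each genotype (959, 454 and 37 for the vector comparisons and their difference), in wild-type cells with no normalization between arrays (336) or without wild-type control replicate 3 (349), and with only the 2 groups compared in the Booreana response (63) and for genotype with the control vector (515). Without Booreana AML1-ETO9a replicate 2 it was 138 in Booreana cells, and under the other settings the difference of the responses ranged from 4 to 28. With no normalization between arrays, 68.2% of calls were higher in the wild-type response (against 315 of 551), 86.1% in the Booreana response (134 of 210) and 77.3% for genotype with AML1-ETO9a (296 of 477). Signals near background, as for Rgs16 in control cells, limit the fold changes.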
